A study of Mus musculus with 4 samples.

Results

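Serpins and stefins are inhibitors of proteases, and 9 of their genes were followed here in regulatory and effector CD4 T cells: the clade B serpins Serpinb5, Serpinb1a, Serpinb6a, Serpinb6b and Serpinb9, the clade A serpins Serpina3g and Serpina3f, and the stefins Csta2 and Cstdc6. They were found on the arrays by gene name, older alias and transcript accession, at 15 of 41174 probes. Of these probes, 13 were well above the local background in at least 3 of 26 channels, and each of the 9 genes kept at least 1 probe among the 19895 genes tested. The genes were grouped with results of the same arrays in view, and which values put each one on the list is not recorded. All comparisons of the 9 genes are therefore given as descriptions, with their errors and without tests.

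RNA of Treg and T-effector cells was hybridised together on each of 13 two-colour arrays of the mouse genome. The cells were CD4+ cells of lymph node, grown for 4 days on anti-CD3 coated at 1 ug/ml and incubated for 3 days with cytokines. The conditions were IL2 with TGFb and IL6 (4 arrays), IL2 with TGFb (3 arrays), IL2 with IL6 (3 arrays) and IL2 alone (3 arrays), with IL2 at 100 units/ml, TGFb at 4 ng/ml and IL6 at 25 ng/ml. All conditions thus shared anti-CD3 and IL2, and they are called TGFb with IL6, TGFb, IL6 and IL2 alone below. By its title the series asks how TGFb converts cells to Treg and how IL6 inhibits that conversion. The labels used here give neither the markers by which Treg and T-effector cells were separated nor the mouse strain, nor whether a condition's arrays stand for separate cultures or animals, so p-values measure the spread between arrays, which may be technical.

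A serpin acts as a bait: the protease cuts an exposed loop of the inhibitor and is trapped in a covalent complex with it. Clade B serpins lack a classical signal peptide and act mostly inside cells, where in lymphocytes and myeloid cells they shield the cell from proteases of its own granules and lysosomes. Stefins are small intracellular proteins that block the active site of papain-like cysteine proteases, among them the lysosomal cathepsins. In cultured CD4 T cells TGFb favours Foxp3 expression, and TGFb given with IL6 favours the Th17 programme.

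Promoter sequence was available from RefSeq (build GRCm38.p6, 250 bases before to 50 after the transcription start) for 7 of the 9 genes, the exceptions being Serpinb1a and Cstdc6. These 5 windows are shown because their genes carry the patterns described below: a pair of neighbouring clade A serpins with lower signals under IL6, Serpinb5 with its signal under TGFb with IL6, and a pair of genes of the stefin cluster. Capitals mark matches to TTCNNNGAA, the palindrome that STAT factors bind, which reads alike on both strands.
Serpina3g, chr12:104235897-104236196, plus strand: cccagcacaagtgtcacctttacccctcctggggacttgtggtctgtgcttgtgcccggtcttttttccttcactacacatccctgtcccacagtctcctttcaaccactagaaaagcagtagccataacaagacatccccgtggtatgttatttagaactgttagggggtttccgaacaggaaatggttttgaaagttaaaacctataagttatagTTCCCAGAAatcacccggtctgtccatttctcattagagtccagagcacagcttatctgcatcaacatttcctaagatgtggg
Serpina3f, chr12:104214294-104214593, plus strand: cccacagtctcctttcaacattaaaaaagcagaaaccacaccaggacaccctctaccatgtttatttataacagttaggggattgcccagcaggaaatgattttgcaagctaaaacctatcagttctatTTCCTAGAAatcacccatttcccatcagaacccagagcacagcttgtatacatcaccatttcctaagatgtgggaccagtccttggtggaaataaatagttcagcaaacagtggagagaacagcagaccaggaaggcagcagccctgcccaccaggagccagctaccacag
Serpinb5, chr1:106860925-106861224, plus strand: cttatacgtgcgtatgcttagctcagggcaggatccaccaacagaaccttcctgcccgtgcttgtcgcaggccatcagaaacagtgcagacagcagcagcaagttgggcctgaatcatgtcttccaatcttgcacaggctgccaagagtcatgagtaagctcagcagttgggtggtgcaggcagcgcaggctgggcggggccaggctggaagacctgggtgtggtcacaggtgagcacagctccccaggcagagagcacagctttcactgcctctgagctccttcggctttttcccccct
Csta2, chr16:36221312-36221611, plus strand: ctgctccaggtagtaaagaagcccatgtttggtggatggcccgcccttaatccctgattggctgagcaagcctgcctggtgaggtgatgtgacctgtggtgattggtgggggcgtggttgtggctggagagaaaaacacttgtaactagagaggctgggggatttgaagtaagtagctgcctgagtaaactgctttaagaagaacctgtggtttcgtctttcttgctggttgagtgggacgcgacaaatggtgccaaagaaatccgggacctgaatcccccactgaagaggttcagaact
Cstdc4, chr16:36183962-36184261, plus strand: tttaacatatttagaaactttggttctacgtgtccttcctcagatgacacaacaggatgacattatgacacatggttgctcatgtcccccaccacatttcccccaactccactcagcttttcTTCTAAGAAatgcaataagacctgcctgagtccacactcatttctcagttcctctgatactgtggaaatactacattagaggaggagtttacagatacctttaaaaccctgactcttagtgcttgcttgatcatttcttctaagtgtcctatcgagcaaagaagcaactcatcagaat

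The match in Serpina3g is TTCCCAGAA, at position -33 from the start, and that in Serpina3f is TTCCTAGAA, at position -121. Over 214 aligned bases these 2 windows share 169 (79%), and their matches lie in the aligned stretch. Cstdc4 has TTCTAAGAA at position -128, whereas Csta2 and Serpinb5 have no match in these windows. Among the 10 genes of the stefin cluster with a window, only Cstdc4 has a match, and Stfa2l1, Stfa2 and Stfa3 have none. A match to TTCNNNGAA occurs in 8.3% of 32851 mouse promoter windows of this length. The Serpinb5 window also holds TGAATCA, a match to the AP-1 pattern TGANTCA found in 7.81% of windows, and CAGAC, the Smad box, found in 49.6% (either strand). The Smad box also lies in the windows of Serpina3g, at -209 and -16, of Serpina3f, at 3, and in 1 of the 2 windows of Serpinb6a. A second window of Serpina3f, not shown, has the STAT match at -210 and the Smad box at -87 and -42. Csta2 holds TGACCT, the reverse complement of the ROR core AGGTCA, which 16.3% of windows contain. Serpinb9 and 1 of the 2 windows of Serpinb6a have a match to the interferon response pattern ISRE, which 3.44% of windows contain. That window of Serpinb6a also has 2 matches to the STAT palindrome. Neither a bound factor nor a cause can be read from a match, and no match says only that the letters are absent from this window.

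Foxp3, whose product is the master factor of the Treg lineage, was brighter in the Treg channel of all 13 arrays: its log2 signal was 7.89 to 9.18 there and 6.07 to 7.2 in T-effector channels. Of 8 T cell markers at least 7 were above background on every array of each group. Cd3e read 8.67 to 10.21 over all channels. Cd4 was low, at 6.65 to 7.28, and above background on 3 of 4 T-effector channels of TGFb with IL6. Cd8a read 7.26 to 10.34, with 9.93 to 10.34 in Treg channels of TGFb with IL6. The cause was not tested. Between 38.9 and 69.7% of probes were well above background in a Treg channel, and between 41.7 and 67% in a T-effector channel. Among the brighter spots, a spatial trend made up 32.2 to 54.1% of the variance of log ratios on the 4 arrays of slide E, against 1.59 to 19.6% on the other slides. The Treg channels of the 2 arrays of slide A stood apart: the summed signal of 8 CD8 and NK cell markers was 1530 in IL6 and 1550 in IL2 alone there, against 3750 and 3560 on the other IL6 arrays and 2880 and 3390 on the other arrays of IL2 alone. Granzyme A (Gzma) was also lower in these channels, at 7.79 in IL6 against 12.25 and 11.56 on the other IL6 arrays. The macrophage receptor gene Csf1r was higher, at 8.52 in IL6 against 6.25 and 6.71, and at 8.03 in IL2 alone against 6.92 and 6.26. The summed signal of 14 myeloid and dendritic markers was 2170 there in IL6, against 1370 and 1670. In IL2 alone this sum was 1660 against 2020 and 1210, so it did not set that array apart. Where the arrays of slide A decided a value described below, it is also given without them. In bulk RNA of this kind, fewer cells of a type and less RNA per cell cannot be told apart.

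Serpinb5 encodes maspin, a clade B serpin best known from epithelia, which does not form the trapping complex with proteases. Its single probe, at chr1:106781864-106781923 (mm7, plus strand, per the files), was measurable above background in the conditions with IL6 and below it without. In TGFb with IL6 its log2 signal was 12.2, 12.44, 11.91 and 12.11 in Treg channels and 10.15, 10.91, 10.4 and 10.64 in T-effector channels. With TGFb and no IL6 it was 6.02, 5.77 and 6.12 in Treg channels and 6.06, 6.04 and 6.03 in T-effector channels, none of them well above background. All 8 channels of TGFb with IL6 were thus far above all 6 channels of TGFb, and within TGFb with IL6 every Treg channel was above every T-effector channel. IL6 without TGFb gave a smaller signal, 8.54, 6.99 and 7.99 in Treg and 7.83, 8.55 and 8.3 in T-effector channels. In IL2 alone the values were 5.95, 6.1 and 6.22 in Treg and 6.22, 6.15 and 6.31 in T-effector channels, again below background.

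Since a group without measurable signal gives only a bound, Serpinb5 was at least 58.5-fold higher in TGFb with IL6 than in TGFb in Treg cells and at least 21.6-fold higher in T-effector cells. IL6 over IL2 alone gave at least 3.23-fold in Treg and at least 4-fold in T-effector cells, and at least 4.29-fold and 3.56-fold without slide A. These bounds compare the bright group's mean with the lowest signal well above background on each array of the dim group, or with the probe's own signal where that was higher. On the 3 slides that hold both TGFb conditions, the bound in Treg cells was 64.9-fold (slide E), 51.7-fold (slide B) and 55.2-fold (slide D). The Treg over T-effector log2 ratio in TGFb with IL6 was 1.64 ± 0.26 (SE, n = 4), a 3.11-fold difference present on every array. In IL6 the ratio was -0.38 ± 0.3 (n = 3) with values on both sides of 0, and it became 0.2 when the IL6 array of slide A was left out.

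Serpinb1a is the mouse counterpart of the human leukocyte elastase inhibitor, which inactivates elastase, proteinase 3 and cathepsin G. Its probe lies at chr13:32208400-32208459 (mm7, minus strand), on the chromosome that also carries the probes of Serpinb6b (chr13:32344418-32344477), Serpinb9 (chr13:32383049-32383108) and Serpinb6a (chr13:33336320-33336379). Its log2 signal in TGFb with IL6 was 12.38, 12.47, 12.24 and 12.28 in Treg and 10.85, 11.04, 10.69 and 10.83 in T-effector channels. TGFb alone left it at 7.06, 7.14 and 7.1 in Treg and 6.62, 6.9 and 6.62 in T-effector channels, where the T-effector channels were above background on 2 of 3 arrays. The 4 arrays with TGFb and IL6 were tightly grouped and far from those with TGFb, in both cell types. Under IL6 it was 8.03, 8.72 and 7.6 in Treg and 6.79, 6.81 and 6.8 in T-effector channels, against 6.91, 6.69 and 6.88 in Treg and 7.16, 6.8 and 6.97 in T-effector channels of IL2 alone. IL6 without TGFb therefore went with a higher signal in Treg cells on all 3 arrays, and the T-effector channels of these 2 conditions overlapped.

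TGFb with IL6 exceeded TGFb by 5.25 ± 0.18 on the log2 scale for Serpinb1a in Treg cells, a 38-fold difference, and by 4.13 ± 0.18 (17.5-fold) in T-effector cells. Within the 3 slides with both conditions the Treg difference was 5.23, 5.15 and 5.32. IL6 exceeded IL2 alone by 1.27 ± 0.19 in Treg cells, and by 0.99 without the IL6 array of slide A, whereas the T-effector difference was -0.16 ± 0.19. The Treg over T-effector ratio was 1.49 ± 0.13 (2.81-fold) in TGFb with IL6, 0.37 ± 0.15 in TGFb, 1.3 ± 0.15 in IL6 and -0.13 ± 0.15 in IL2 alone. Serpinb1a was higher in Treg channels on all arrays of the 3 conditions with an added cytokine and lower on all 3 arrays of IL2 alone.

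**Figure D1:**
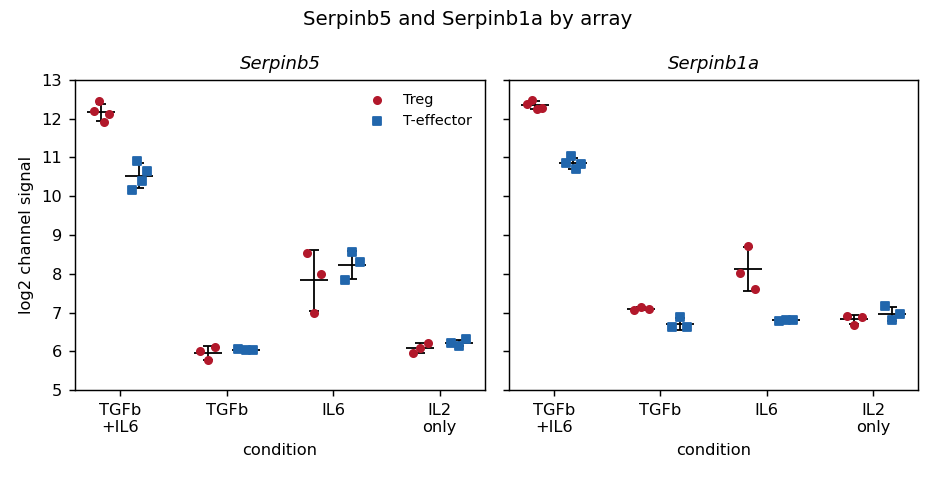
Log2 channel signal (vertical axis) of Serpinb5 (left) and Serpinb1a (right) in Treg (red circles) and T-effector channels (blue squares) of the 13 arrays, by condition, with mean and SD as black bars. Signals of both genes in TGFb with IL6 lie above 10, and those of Serpinb1a in IL6 separate the Treg from the T-effector channels.

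The signals of Serpinb5 and Serpinb1a ran closely together over the 26 channels, with r = 0.94. The genes most like Serpinb5 were B4galnt4 (r = 0.958), 4932438H23Rik (0.958) and Susd3 (0.951). Those most like Serpinb1a were Colec11 (r = 0.981), Serpinb1c (0.979) and C030027H14Rik (0.978). These correlations describe the same 26 channels of 13 arrays, which share arrays, dyes and normalization, and they carry no test.

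Serpinb6a inhibits cathepsin G, and its main probe, above background in all 26 channels, varied little with cytokines in Treg cells. Its mean log2 signal was 8.7 ± 0.15 in TGFb with IL6 (SD, n = 4), 8.61 ± 0.07 in TGFb, 8.52 ± 0.46 in IL6 and 8.56 ± 0.46 in IL2 alone (n = 3 each) in Treg cells. T-effector means were 7.82 ± 0.3 in TGFb with IL6, 7.8 ± 0.44 in TGFb, 8.25 ± 0.22 in IL6 and 8.58 ± 0.04 in IL2 alone. The TGFb difference from IL2 alone was -0.04 ± 0.22 in Treg and -0.69 ± 0.22 in T-effector cells. Treg cells had the higher signal on every array with TGFb, with log2 ratios of 0.87 ± 0.15 in TGFb with IL6 and 0.72 ± 0.17 in TGFb. Its ratios of 0.18 ± 0.17 in IL6 and 0.07 ± 0.17 in IL2 alone turned to -0.2 and -0.36 against the median of all genes when arrays were centred on their median, and were 0.05 and -0.05 without slide A. A second probe was above background in 2 of 26 channels and another in 0 of 26, so neither adds a level.

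Serpinb6b, which inhibits granzyme A in the mouse, was lower in the conditions with TGFb. Treg signals averaged 7.86 ± 0.16 in TGFb with IL6 and 8.44 ± 0.16 in TGFb, and 8.81 ± 0.75 in IL6 and 9.57 ± 0.72 in IL2 alone. T-effector signals averaged 7.63 ± 0.22 in TGFb with IL6 and 8.35 ± 0.32 in TGFb, and 9.25 ± 0.33 in IL6 and 9.76 ± 0.18 in IL2 alone. The wide spread in 2 Treg groups comes with the arrays of slide A, which gave 7.95 in IL6 and 8.73 in IL2 alone, against 9.16 and 9.33 and against 9.97 and 10 on the other arrays. The difference between TGFb and IL2 alone was -0.98 ± 0.26 in Treg and -1.56 ± 0.26 in T-effector cells, and on slide D, which holds both, it was -1.36 and -1.47. TGFb with IL6 differed from TGFb by -0.66 ± 0.24 in Treg and -0.65 ± 0.24 in T-effector cells. IL6 less IL2 alone gave -0.61 ± 0.26 for Serpinb6b in Treg cells, and -0.26 when the IL6 array of slide A was left out.

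Serpinb9 is the inhibitor of granzyme B, the main killing protease of cytotoxic granules. In Treg cells its signal was 6.65, 6.28, 6.51 and 6.64 in TGFb with IL6, 6.66, 6.51 and 6.82 in TGFb, 7.42, 7.04 and 7.19 in IL6 and 7.31, 7.23 and 7.46 in IL2 alone. In T-effector cells it was 6.49, 6.44, 6.16 and 6.3 in TGFb with IL6, 6.69, 6.59 and 6.52 in TGFb, 7.56, 7.66 and 7.08 in IL6 and 7.92, 7.55 and 7.87 in IL2 alone. At this probe every channel with TGFb was below every channel without it, and some of them were near the background limit: 3 of 4 Treg and 2 of 4 T-effector channels of TGFb with IL6 were well above it, and 2 of 3 Treg channels of TGFb. TGFb differed from IL2 alone by -0.61 ± 0.13 in Treg and -1.24 ± 0.13 in T-effector cells, a 1.53-fold and a 2.36-fold difference. Slide D gave -0.41 and -1.04 for these differences. In IL2 alone the Treg over T-effector ratio of Serpinb9 was -0.5 ± 0.1, lower in Treg on all 3 arrays. A second probe of the gene gave a ratio of -0.5 ± 0.32 (SD) there. At that probe the groups overlapped: the TGFb array of slide B read 6.95 in both channels, above the lowest Treg signals of 6.42 in IL6 and 6.65 in IL2 alone.

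Serpinb6b and Serpinb9 were alike in course, with r = 0.89 over the 26 channels. Slco4a1 (r = 0.951), H2-Ab1 (0.946) and Ccdc184 (0.941) were most like Serpinb6b, and an unnamed transcript (0.947), Hspa2 (0.939) and Spint1 (0.935) most like Serpinb9. For Serpinb6a the nearest genes were less close, with Dalrd3 at 0.88 and Akr1b8 and Vps13a at 0.859.

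Serpina3g, known as Spi2A, is an unusual clade A serpin that acts inside cells and inhibits lysosomal cathepsins as well as serine proteases. Its signal in Treg cells was 10.45, 10.63, 10.35 and 10.57 in TGFb with IL6, against 12.1, 12.14 and 11.98 in TGFb. In T-effector cells it was 9.58, 9.68, 9.3 and 9.78 in TGFb with IL6, against 11.66, 11.42 and 11.36 in TGFb. In both cell types all arrays with TGFb and IL6 lay below all arrays with TGFb. IL6 without TGFb gave 11.21, 10.3 and 11.17 in Treg and 10.6, 10.74 and 10.58 in T-effector channels, against 12.29, 12.5 and 12.15 in Treg and 12.19, 12.15 and 12.13 in T-effector channels of IL2 alone. The IL6 channels were all below those of IL2 alone as well, and the low Treg value of 10.3 belongs to slide A.

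For Serpina3g, TGFb with IL6 less TGFb was -1.59 ± 0.18 in Treg (3-fold lower) and -1.88 ± 0.18 in T-effector cells (3.69-fold lower). IL6 less IL2 alone was -1.4 ± 0.19 in Treg cells and -1.54 ± 0.19 in T-effector cells, and the Treg value was -1.13 without the IL6 array of slide A. TGFb less IL2 alone was -0.22 ± 0.19 in Treg and -0.7 ± 0.19 in T-effector cells. Treg cells had more signal on every array with TGFb, with ratios of 0.91 ± 0.14 in TGFb with IL6 and 0.62 ± 0.17 in TGFb. Ratios of 0.27 ± 0.17 in IL6 and 0.13 ± 0.17 in IL2 alone became -0.42 and -0.59 against the median of all genes after median centring, so their direction is not settled. Without slide A the ratio in IL6 was 0.6 ± 0.11.

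Serpina3f, a neighbouring and closely related gene, followed the same course at a separate pair of probes. Its main probe gave 7.78, 7.63, 7.99 and 7.48 in TGFb with IL6 and 9.04, 8.98 and 9 in TGFb in Treg cells, and 8.31, 7.34 and 8.49 in IL6 and 9.49, 9.73 and 9.48 in IL2 alone. The T-effector channels read 7.69, 7.42, 7.44 and 7.19 in TGFb with IL6 and 9.26, 8.67 and 8.65 in TGFb, and 8.52, 8.19 and 8.25 in IL6 and 9.63, 9.8 and 9.85 in IL2 alone. Neither pair of conditions overlapped in either cell type. TGFb with IL6 less TGFb was -1.31 ± 0.2 in Treg and -1.4 ± 0.2 in T-effector cells, and IL6 less IL2 alone was -1.47 ± 0.21 and -1.49 ± 0.21. Without the IL6 array of slide A the last difference in Treg cells was -1.15 for Serpina3f. Means of the second probe in Treg cells ran in the same order, at 7.06 in TGFb with IL6, 8.02 in TGFb, 7.48 in IL6 and 8.84 in IL2 alone.

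Serpina3g and Serpina3f were each other's nearest gene over the 26 channels, at r = 0.93. Ifitm2 (0.921) and Lhpp (0.899) followed for Serpina3g, and Stap1 (0.911) and Ifitm2 (0.902) for Serpina3f. With Serpinb5 both had negative correlations, -0.79 for Serpina3g and -0.81 for Serpina3f. The clade A serpins are near-identical in parts and how far their transcripts bind each other's probes was not tested. Probes of Serpina3g and Serpina3f lie at chr12:101736157-101736216 and chr12:101715076-101715135 (mm7, plus strand), per the files.

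**Figure D2:**
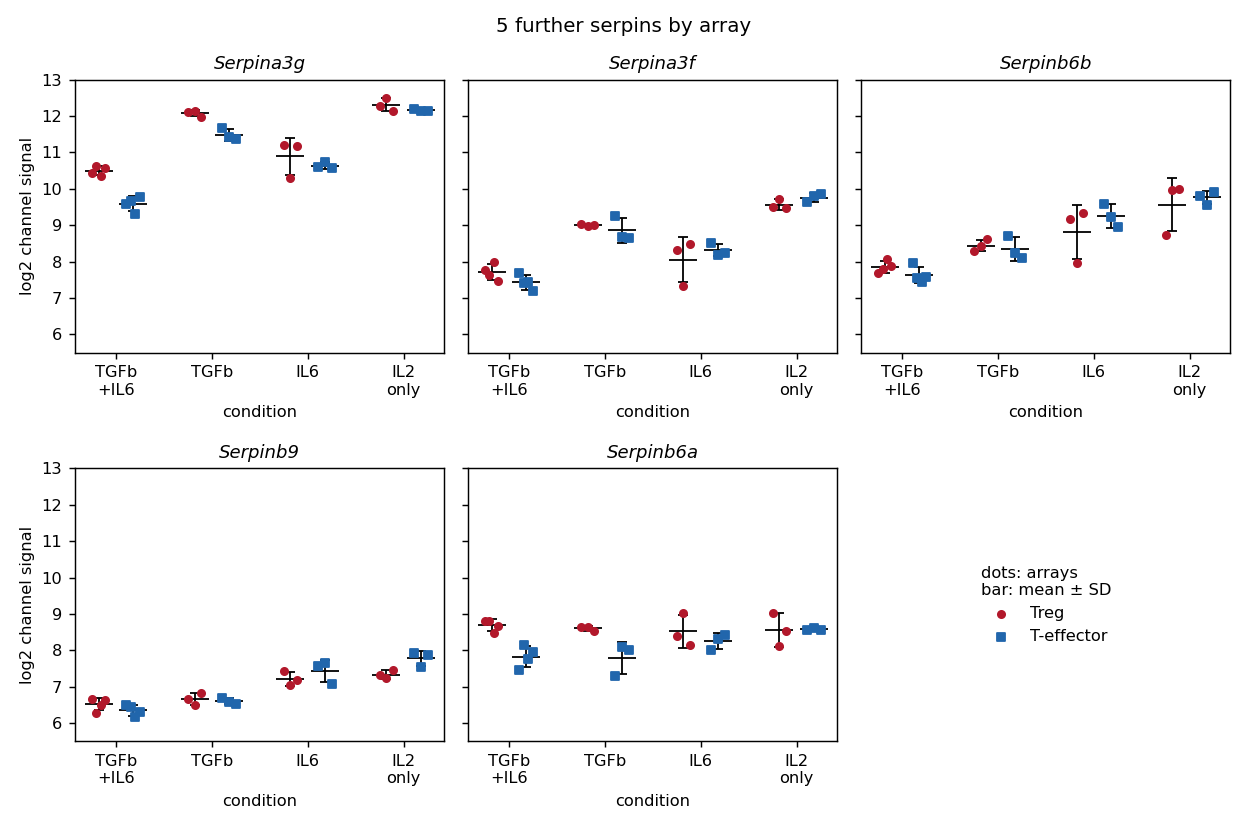
Log2 channel signal of Serpina3g, Serpina3f, Serpinb6b, Serpinb9 and Serpinb6a in Treg (red circles) and T-effector channels (blue squares) by condition, with mean and SD as black bars. Serpina3g and Serpina3f are lower in both conditions with IL6, Serpinb9 is lower in both with TGFb, and Serpinb6a in Treg cells stays near 8.6 throughout.

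Csta2 is a stefin A gene of the mouse stefin cluster on chromosome 16, and its probe, at chr16:35935234-35935293 (mm7), is listed in the files under a clone name. In Treg cells its signal was 12.13, 12.19 and 11.62 in IL6, against 10.09, 10.17 and 10.24 in IL2 alone. TGFb with IL6 gave 9.02, 9.15, 8.72 and 9.03 in Treg cells, against 6.91, 7.11 and 7.01 in TGFb. The 4 conditions therefore stood in the order IL6, IL2 alone, TGFb with IL6 and TGFb, without overlap between neighbours. T-effector channels read 8.89, 8.67 and 8.65 in IL6 and 8.09, 7.45 and 7.43 in IL2 alone, and 8.27, 8.47, 8.13 and 8.36 in TGFb with IL6 and 6.81, 7.11 and 6.84 in TGFb.

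Cstdc6 was measured by 3 oligos that overlap each other, listed in the files as Stfa1 and matched here by transcript accession. The brightest, at chr16:36030180-36030239 (mm7), gave 11.49, 11.53 and 11.2 in IL6 and 9.12, 9.29 and 8.99 in IL2 alone in Treg cells, and 8.59, 8.73, 8.35 and 8.58 in TGFb with IL6 and 6.59, 6.7 and 6.53 in TGFb. In T-effector cells it gave 8.2, 8.01 and 8.15 in IL6 and 6.63, 6.88 and 6.83 in IL2 alone, and 7.83, 8.21, 7.76 and 8.16 in TGFb with IL6 and 6.48, 6.62 and 6.54 in TGFb. The order of conditions in Treg cells was that of Csta2, again without overlap, and the T-effector channels of both conditions with IL6 were above those without it. In the other oligos IL6 was again the highest and TGFb the lowest in Treg cells, but IL2 alone did not stand clear of TGFb with IL6. One gave 8.76, 8.94 and 7.91 in IL2 alone against 8.13, 7.94, 8.11 and 7.66 in TGFb with IL6, and the means of the other were 7.13 and 7.29. Their Treg over T-effector log2 ratios were 2.99 and 2.6 in IL6, 2.09 and 0.99 in IL2 alone, 0.44 and 0.38 in TGFb with IL6 and 0.12 and 0 in TGFb.

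Treg cells exceeded T-effector cells 9.54-fold in both stefins in IL6, with log2 ratios of 3.25 ± 0.14 for Csta2 and 3.25 ± 0.09 for Cstdc6. In IL2 alone Csta2 was 5.64-fold higher (2.5 ± 0.14) and Cstdc6 5.23-fold higher (2.39 ± 0.09). TGFb with IL6 gave ratios of 0.67 ± 0.12 and 0.57 ± 0.08, and TGFb gave 0.1 ± 0.14 for Csta2 and 0.03 ± 0.09 for Cstdc6. The difference between cell types thus held on every array of 3 conditions and was within its error in TGFb. After median centring the ratios against the median of all genes were 2.61 and 2.67 in IL6 and 2.02 and 2.11 in IL2 alone for Csta2 and Cstdc6.

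**Figure D3:**
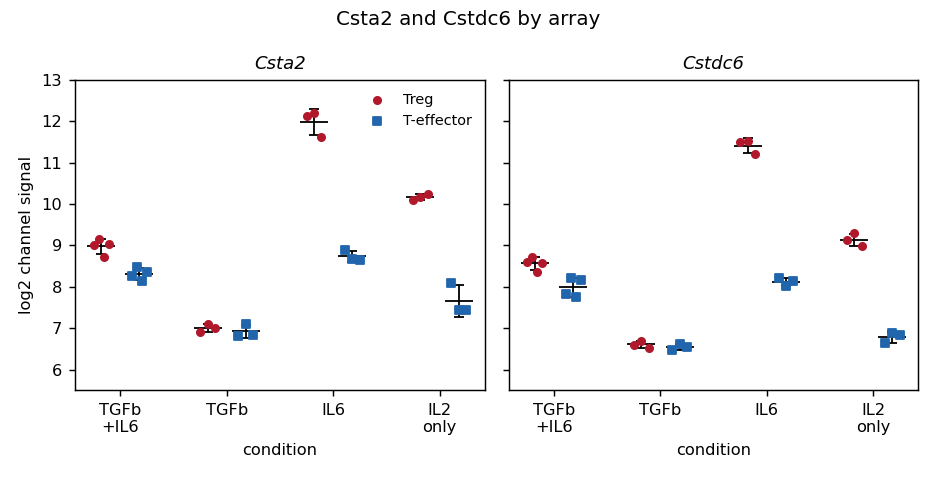
Log2 channel signal of Csta2 (left) and Cstdc6 (right) in Treg (red circles) and T-effector channels (blue squares) by condition, with mean and SD as black bars. Treg and T-effector channels are farthest apart in IL6, where Csta2 averages 11.98 in Treg and 8.74 in T-effector channels, and coincide in TGFb.

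Between conditions, TGFb less IL2 alone was -3.14 ± 0.18 for Csta2 in Treg cells, 8.82-fold lower, and -2.56 ± 0.12 for Cstdc6, 5.88-fold lower. In T-effector cells the same differences were -0.75 ± 0.18 for Csta2, or -0.49 without slide A, and -0.2 ± 0.12 for Cstdc6. TGFb with IL6 exceeded TGFb by 1.96 ± 0.16 in Treg and 1.39 ± 0.16 in T-effector cells for Csta2, and by 1.97 ± 0.11 and 1.42 ± 0.11 for Cstdc6. IL6 exceeded IL2 alone by 1.83 ± 0.18 and 1.07 ± 0.18 for Csta2 and by 2.24 ± 0.12 and 1.37 ± 0.12 for Cstdc6. IL6 thus went with higher stefin signals both with and without TGFb, and in both cell types. Only slide D holds both TGFb and IL2 alone, and only slide A both IL6 and IL2 alone. On these slides Treg values were -3.16 and -2.76 for TGFb less IL2 alone (slide D), and 2.11 and 2.41 for IL6 less IL2 alone (slide A), for Csta2 and Cstdc6. T-effector values were -0.6 and -0.34 on slide D and 0.59 and 1.38 on slide A. The other arrays of these conditions lie on different slides, so slide and condition cannot be fully told apart there.

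Csta2 and Cstdc6 were closest to each other over the 26 channels, with r = 0.983. Rapgef3 (0.972) and Cstdc4 (0.944) followed for Csta2, and Cstdc4 (0.976) and Stfa2l1 (0.961) for Cstdc6. Stefin transcripts of the mouse are very alike, the probes of Cstdc6 carry the name of its neighbour Stfa1 in the files, and cross-hybridisation among them was not tested. Neutrophils are a rich source of stefin A transcripts, and 8 to 11 of 13 neutrophil markers were below background on all arrays of a group, including S100a8, Camp, Lcn2 and Csf3r in every group. Their summed signal was 848 to 1060 in all groups. The 14 myeloid and dendritic markers summed in IL6 to between 1370 and 2170 (Treg) and between 1070 and 1480 (T-effector), and in IL2 alone to between 1210 and 2020 (Treg) and between 1090 and 1450 (T-effector). In TGFb with IL6 they summed to between 1330 and 2030 (Treg) and between 1330 and 2130 (T-effector), and in TGFb to between 1310 and 1960 (Treg) and between 1240 and 1890 (T-effector). Of these markers 5 to 8 were below background throughout a group, among them Clec9a, Mrc1 and Siglech in every group. Their part in the stefin result was not tested.

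The 11 B cell markers summed in Treg channels to between 5080 and 5610 in TGFb with IL6, 9280 and 10300 in TGFb, 3800 and 4720 in IL6, and 5200 and 6450 in IL2 alone. Their sum in T-effector channels was between 1700 and 2960 in TGFb with IL6, 2750 and 3660 in TGFb, 2130 and 2330 in IL6, and 5480 and 5890 in IL2 alone. Mast cell and basophil markers (8) summed to 512 to 939 and the 10 epithelial and stromal markers on the arrays to 941 to 1420 over all groups. The 8 Treg markers summed to between 7910 and 17200 in Treg channels and between 3750 and 8950 in T-effector channels. CD8 and NK markers summed in Treg channels to between 4360 and 5190 in TGFb with IL6, 3330 and 4570 in TGFb, 1530 and 3750 in IL6, and 1550 and 3390 in IL2 alone. In T-effector channels they summed to between 3080 and 4040 in TGFb with IL6, 2970 and 3830 in TGFb, 3080 and 3870 in IL6, and 3270 and 4050 in IL2 alone. Their sum was higher in Treg on 4 of 4 arrays of TGFb with IL6, 2 of 3 of TGFb, 1 of 3 of IL6 and 0 of 3 of IL2 alone. The part of these markers in the serpin and protease results was not tested.

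**Figure D4:**
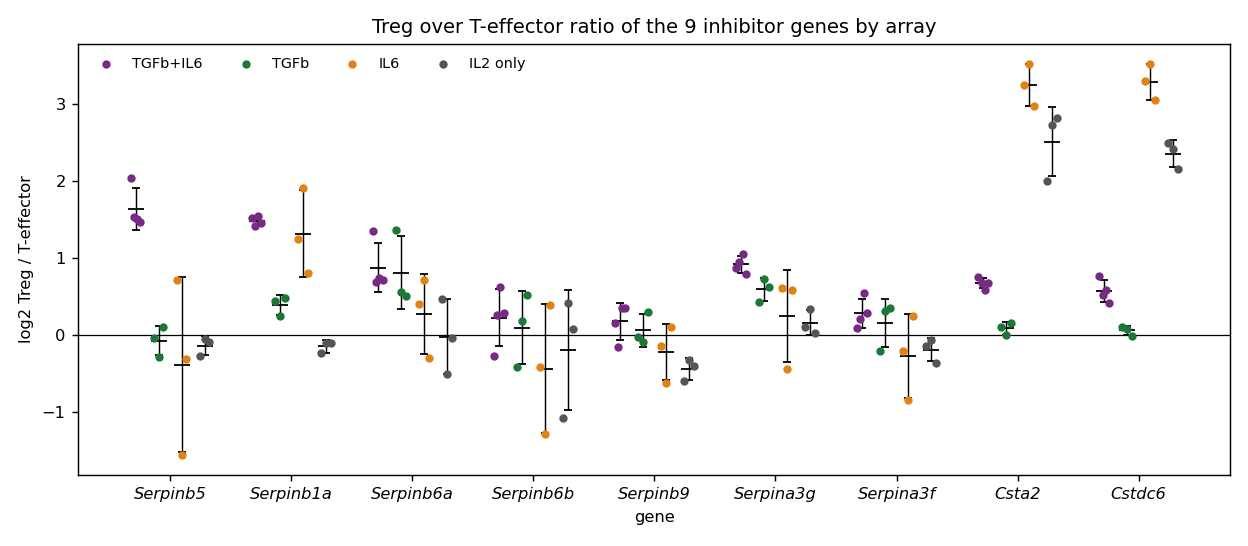
Treg over T-effector log2 ratio (vertical axis) of the main probe of each gene on every array, coloured by condition, with mean and SD as black bars and a line at 0. Csta2 and Cstdc6 are highest in IL6 and in IL2 alone, whereas Serpinb5 is above 0 on every array only in TGFb with IL6.

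Past an adjusted p of 0.05 over all 19895 genes were 6 of the 9 genes for Treg over T-effector in TGFb with IL6, where 5.84% of all genes passed, 1 in TGFb (5.96% of all genes), 3 in IL6 (5.87%) and 3 in IL2 alone (11%). For TGFb with IL6 against TGFb 6 passed in Treg cells (5.63% of all genes) and 6 in T-effector cells (7.49%). For TGFb against IL2 alone 4 passed in Treg (7.81%) and 5 in T-effector cells (4.39%), and for IL6 against IL2 alone 6 in Treg (0.96%) and 5 in T-effector cells (0.809%). Nothing is read from these counts, since the genes were gathered with the same arrays in view. The median log2 ratio over the 9 genes was 0.67 in TGFb with IL6, 0.2 in TGFb, 0.18 in IL6 and -0.13 in IL2 alone, beside -0.01, -0.01, 0.01 and 0.02 over all genes. These comparisons share arrays: TGFb enters as both numerator and baseline, and IL2 alone is the baseline of both single cytokines.

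The rest of the inhibitor families was read from lists set by family membership, again with earlier results of these arrays known, and tested with limma over all genes. Of 23 other clade B serpins, 19 are on the arrays and 11 were tested. Serpinb1c and Serpinb1b, close paralogs of Serpinb1a, rose in TGFb with IL6 over TGFb, by 2.84 ± 0.13 (adjusted p = 1.85e-12) and 2.51 ± 0.13 (adjusted p = 1.04e-11) in Treg cells. In T-effector cells they rose by 1.59 ± 0.13 (adjusted p = 1.95e-08) and 1.36 ± 0.13 (adjusted p = 1.87e-07), where Serpinb1b in TGFb was below background on all arrays and its fold is at least 2.57. In TGFb, Serpinb1c (mean 6.24) and Serpinb1b (6.13) in Treg cells were above background on 1 of 3 arrays each. The same held for Serpinb1c in T-effector cells (6.32), so these differences start near the background limit. Serpinb1c and Serpinb1b were the only clade B genes past the threshold in either cell type in this comparison. The list's median was -0.13 in Treg and -0.12 in T-effector cells beside -0.03 over all genes in each. For Treg over T-effector in TGFb with IL6, 3 of 11 were higher: Serpinb1c by 1.19 ± 0.1 (adjusted p = 0.000125), Serpinb1b by 1.12 ± 0.1 (adjusted p = 0.000216) and Serpinb6c by 0.57 ± 0.09 (adjusted p = 0.00402). In TGFb Serpinb6c and in IL2 alone Serpinb3c were the single clade B genes higher in Treg, and in IL6 none passed, with 3 at an unadjusted p under 0.05. Without slide A the ratio of Serpinb3c in IL2 alone was 0.37 ± 0.14 (adjusted p = 0.12). Transcripts of the Serpinb1 paralogs are alike enough that their probes may share signal, which was not tested.

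Among 35 serpins of the other clades, 30 are on the arrays and 17 were tested. Serpinf1, which encodes the secreted pigment epithelium-derived factor, fell in TGFb against IL2 alone, by 1.97 ± 0.43 in Treg (adjusted p = 0.00438) and by 1.93 ± 0.43 in T-effector cells (adjusted p = 0.00982) on the log2 scale. Serpine2, an inhibitor of thrombin and of plasminogen activators, fell with it, by 0.59 ± 0.15 in Treg (adjusted p = 0.0162) and by 0.57 ± 0.15 in T-effector cells (adjusted p = 0.0337). Serpine2 was the 1 gene of this list higher in Treg in TGFb with IL6, by 0.68 ± 0.08 (adjusted p = 0.00101). In the other 3 conditions no gene of the list passed the limma test for Treg over T-effector, with 1 to 3 at an unadjusted p under 0.05.

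Stefins and cystatins other than the members numbered 28, of which 23 are on the arrays and 12 were tested. In IL6, 4 were higher in Treg and 0 lower: Cstdc4 by 2.65 ± 0.24 (adjusted p = 0.000115), Stfa2l1 by 2.5 ± 0.12 (adjusted p = 1.38e-06), Stfa3 by 1.41 ± 0.12 (adjusted p = 9.58e-05) and Stfa2 by 1.11 ± 0.14 (adjusted p = 0.0013). All 4 are genes of the same cluster as Csta2 and Cstdc6. Stfa2 was above background on 3 of 3 Treg and 2 of 3 T-effector channels of IL6. It was also above on 3 of 3 Treg channels of IL2 alone, and below in all other channels. Stfa2 thus passed the filter of 3 channels mainly through the Treg side of the ratios tested here. Its p-values for Treg over T-effector are therefore not independent of that filter, and little is read from them. In IL2 alone Cstdc4 (1.76 ± 0.24, adjusted p = 0.00139), Stfa2l1 (1.04 ± 0.12, adjusted p = 0.000671) and Stfa2 (0.62 ± 0.14, adjusted p = 0.0182) were higher in Treg, the last at least 1.48-fold since it was below background in T-effector channels. Without slide A the ratio of Stfa2 was 0.54 ± 0.19 (adjusted p = 0.0938). The list's median ratio was 0.03 in IL6 and 0.12 in IL2 alone, beside 0.01 and 0.02 over all genes. In TGFb the list had 2 genes higher in Treg, Cst6 and Cstb, and none of the cluster.

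In Treg cells 5 of the 12 fell in TGFb against IL2 alone and 2 rose. Cst7, which encodes cystatin F, an inhibitor of the cathepsins that activate granzymes, fell by 2.04 ± 0.18 (adjusted p = 7.21e-08) and Cstdc4 by 1.81 ± 0.26 (adjusted p = 6.4e-05), while Cst6 rose by 0.82 ± 0.13 (adjusted p = 0.000156) and Cstb by 0.5 ± 0.14 (adjusted p = 0.029). In T-effector cells Cst7 fell by 1.69 ± 0.18 (adjusted p = 3.09e-06). In IL6 against IL2 alone 3 of 12 rose in Treg cells, Stfa2l1 by 2.14 ± 0.16 (adjusted p = 5.12e-08), Cstdc4 by 2.05 ± 0.26 (adjusted p = 0.000146) and Stfa3 by 0.71 ± 0.14 (adjusted p = 0.0152), with 0 lower. In TGFb with IL6 against TGFb, Cstdc4 rose by 1.79 ± 0.24 (adjusted p = 4.3e-05), Stfa2l1 rose at least 1.59-fold and Stfa3 rose by 0.47 ± 0.13 (adjusted p = 0.0381) in Treg cells, while Cst6 fell by 1.34 ± 0.12 (adjusted p = 1.12e-07). Treg means in TGFb were 6.02 for Cstdc4 and 6.26 for Stfa3, each above background on 1 of 3 arrays. The differences of these genes from TGFb, in either comparison, therefore rest on signals near the background limit. In TGFb with IL6, Stfa3 was above background on 2 of 4 Treg channels, at a mean of 6.68. Of Cst3, which encodes the abundant secreted cystatin C, the mean was 10.86 ± 0.06 in TGFb with IL6, 10.91 ± 0.04 in TGFb, 10.5 ± 0.26 in IL6 and 10.85 ± 0.15 in IL2 alone (SD) in Treg cells.

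Along the cluster the annotation places Csta1, Stfa2l1, Cstdc4, Csta3, Csta2, Stfa1, Cstdc3, Cstdc6, Cstdc5, Stfa2 and Stfa3 in this order. Csta1 and Cstdc3 were below background in all channels, and Csta3, Stfa1 and Cstdc5 had no probe under their own name. The other 6 had their highest Treg mean in IL6. The mean was lowest in TGFb for 5 of them, while Stfa2 was below background in both TGFb and TGFb with IL6, which leaves these without an order. Cstdc4 had means of 9.88 in IL6 and 6.02 in TGFb, and Stfa3 of 8.03 and 6.26. Promoter windows of this cluster fall into unlike kinds: Stfa2l1 and Stfa2 share 93.2% of 293 aligned bases and Cstdc4 and Stfa2l1 83.1% of 213, whereas Csta2 aligned with each of them over no more than 21 bases.

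**Figure D5:**
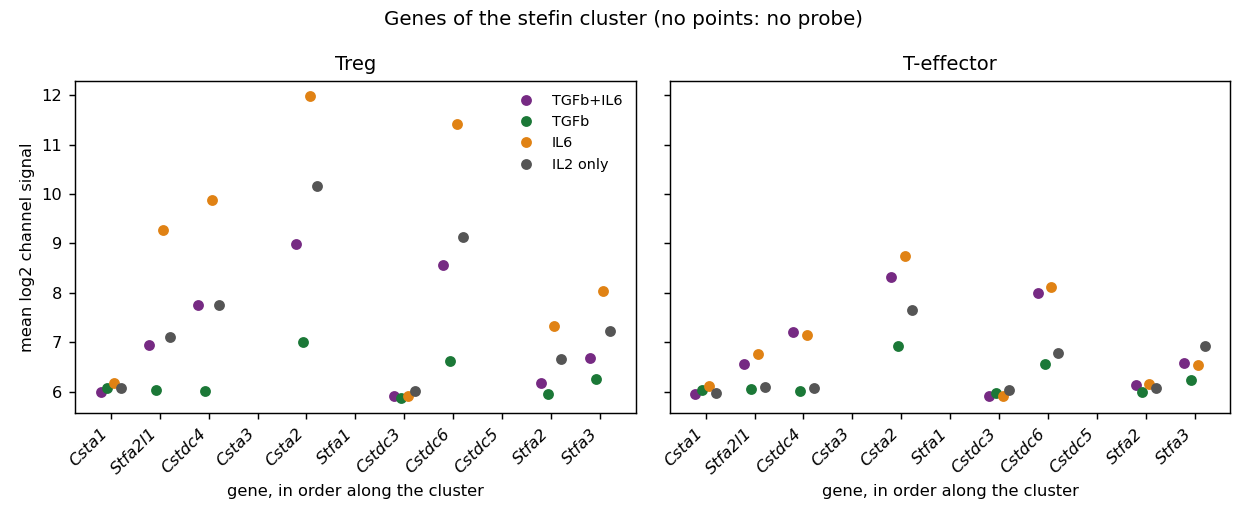
Mean log2 channel signal of the genes of the stefin cluster in their order along chromosome 16, in Treg (left) and T-effector channels (right), coloured by condition. The 6 measured genes are highest in IL6 in Treg cells, and Csta1 and Cstdc3 stay near 6 in every condition.

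Of the cysteine proteases that stefins and cystatins inhibit, 11 are on the arrays and 10 were tested. In IL6, 3 were higher in Treg and 0 lower: Ctss by 1.51 ± 0.28 (adjusted p = 0.0111), Ctsl by 0.88 ± 0.23 (adjusted p = 0.0483) and Ctsh by 0.74 ± 0.15 (adjusted p = 0.0196), the lysosomal cathepsins S, L and H. These 3 were also the ones higher in Treg in IL2 alone, Ctss by 1.07 ± 0.28 (adjusted p = 0.0308). Within these conditions Ctss was highest in the Treg channels of slide A, at 13.2 in IL6 and 12.94 in IL2 alone, against 11.91 and 12.35 on the other IL6 arrays and 12.12 and 11.94 on the other arrays of IL2 alone. Without slide A the Ctss ratio was 1.12 ± 0.2 in IL6 (adjusted p = 0.00802) and 0.58 ± 0.22 in IL2 alone (adjusted p = 0.119), and that of Ctsl in IL6 was 0.39 ± 0.11 (adjusted p = 0.0629). Ctsw, the cathepsin of cytotoxic lymphocytes, rose in TGFb against IL2 alone by 3.15 ± 0.12 (adjusted p = 1.18e-13) in Treg and 1.91 ± 0.12 (adjusted p = 1.63e-09) in T-effector cells. Legumain (Lgmn), an asparaginyl endopeptidase, rose in TGFb with IL6 over TGFb by 1.94 ± 0.17 (adjusted p = 6.4e-08) in Treg and 2.63 ± 0.17 (adjusted p = 7.14e-10) in T-effector cells. In Treg cells under TGFb, Ctsh fell by 1.84 ± 0.32 against IL2 alone (adjusted p = 0.000581).

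All 23 serine proteases of the list are on the arrays and 20 were tested. In IL2 alone 5 granzymes were lower in Treg and only Plat, the tissue plasminogen activator, was higher, by 0.82 ± 0.13 (adjusted p = 0.00427). Gzmb, the target of Serpinb9, was lower in Treg with a log2 ratio of -0.79 ± 0.2 (adjusted p = 0.0272), with log2 signals of 13.08, 14.64 and 14.45 in Treg and 14.79, 14.61 and 14.71 in T-effector channels, so that the value of slide A is far below the others. Without slide A the Gzmb ratio was -0.37 ± 0.12 (adjusted p = 0.073). The count of both protease lists in IL2 alone was 9, but 2 without the IL2 array of slide A and 6 without both arrays of that slide. Over all genes 1054 and 2518 passed in these fits, in place of 2186. In the fit without both, Gzmf and Gzmg no longer passed and Furin was higher, by 1.22 ± 0.16 (adjusted p = 0.00136). In T-effector cells 4 granzymes fell in TGFb against IL2 alone, among them Gzmb by 1.08 ± 0.25 (adjusted p = 0.0118), where Serpinb9 was lower as well. In TGFb with IL6 against TGFb, Gzmb rose in Treg cells by 1.17 ± 0.23 (adjusted p = 0.00219) and St14, which encodes matriptase, fell by 1.17 ± 0.15 (adjusted p = 1.72e-05). Neither protease list had a gene past the threshold in IL6 against IL2 alone by limma in either cell type, with 1 to 3 per list and cell type at an unadjusted p under 0.05. Without slide A, Gzma rose in Treg cells in that comparison by 1.26 ± 0.29 (adjusted p = 0.0308).

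When loess was replaced by centring each array on its median, the all-gene median became -0.32 in IL6 and -0.3 in IL2 alone, and the direction of calls for Treg over T-effector moved with it. In IL6, 5 of the 40 other inhibitor genes tested were then higher and 7 lower, in place of 4 and 0, and 0 of 30 proteases were higher and 9 lower, in place of 3 and 0. In IL2 alone the inhibitors were 4 higher and 7 lower in place of 4 and 0, and the proteases 1 higher and 11 lower in place of 4 and 5. Over all 19895 genes 9016 passed in IL6, in place of 1167, and 9704 in IL2 alone, in place of 2186. Nothing about these families is therefore read from the counts after centring.

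The authors' deposited table gives 1 log2 value per probe and condition, and over the probes it correlated with the present ratios at 0.75 to 0.8 with slopes of 1.47 to 1.81, positive where Treg is higher. The centring of that table is not stated, and its medians are -0.08 to -0.02. In the authors' deposited table Csta2 stands at 3.41 in IL6, 2.55 in IL2 alone, 0.77 in TGFb with IL6 and 0.24 in TGFb. In the same deposited table of the authors Serpinb5 is 1.71 in TGFb with IL6, 0.24 in TGFb, -1.07 in IL6 and -1.17 in IL2 alone, the last 2 farther below 0 than the present ratios of -0.38 and -0.14. Serpinb1a is 1.56 in TGFb with IL6, 1.06 in TGFb, 1.93 in IL6 and -0.47 in IL2 alone in the authors' deposited table.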

How the data were processed

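Each of the 13 two-colour Agilent arrays carried Treg RNA in one dye and T-effector RNA in the other, over 45018 spots including 1639 controls. Per the file headers and the submitters' processing notes, spots were read with Agilent Feature Extraction 9.5.1.1, and the deposited values used are intensities, namely each dye's mean spot signal and the median of its surrounding background. The processed intensities deposited beside them had their background subtracted and dyes normalized by that program, which also gave the deposited log10 ratio of Cy5 over Cy3, used in the alternative named after Agilent's processed signals. The authors also deposited a table of log2 values with 1 column per condition, and its processing is not given in the sources used here. The dye of each cell type came from the labels.

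Background was corrected with normexp (limma 3.58.1, R 4.3.3, offset 50), its parameters fitted without spots flagged for local background, and log ratios were normalized by loess. A probe was kept (28923 in all) if 3 or more of the 26 channels put it well above background and at most 3 arrays lacked it, 1 per gene by highest mean signal, for 19895 genes, of which 225 lacked an array. Probes were named by accession (22951), the files' name (8161), gene ID (294), symbol (6659) or synonym (3109) from RefSeq. Ratios were fitted with condition means and a dye term (8 residual degrees of freedom), and channel signals, after quantile normalization of mean signals, in a separate-channel fit with an intraspot correlation of 0.44 (17 degrees of freedom). The Benjamini-Hochberg adjustment ran over all genes, with a threshold of 0.05. No 2 arrays held identical values. No probe of the 9 genes was saturated, and the number of arrays limits the precision.

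On simulated data of 19670 genes, changes of 0.5, 1, 2 and 3 on the log2 scale were recovered at 26, 80, 96 and 98% for Treg over T-effector in IL6 (7.98% false), and at 44, 84, 100 and 100% for TGFb with IL6 against TGFb in Treg (4.09% false). The 9 genes and all lists were chosen with earlier results of these data known. Named were all 9 genes, the 3 genes most correlated with each of the 9, and Foxp3, Cd4 and Cd3e as checks of the labels. Cst3, Gzma, Gzmf, Gzmg, Furin, Csf1r, Cd8a, Stfa3, Cst6 and Cstb were named where a count or a marker needed them, chosen after their values were seen. From each list up to 4 genes past the threshold, with the largest difference in a comparison, were named. One gene that this rule names, and the count that includes it, are not reported here. TGFb and TGFb with IL6 arrays of the same number share a slide and a dye orientation, and their deviations from group means correlated at 0.54 to 0.76 for ratios, 0.43 to 0.7 for Treg channels and 0.32 to 0.86 for T-effector channels, so a fit with the replicate number as a block was run for them as an alternative, and the values given are from the fit without it. An alternative without the 2 arrays of slide A was added after seeing the data.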

Additional observations from a re-analysis of the deposited data

Results flagged for a closer look

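The Treg over T-effector ratios of Serpinb5, Serpinb1a and Serpina3f had opposite signs on every array of different conditions. How many of all genes do so was not counted, so nothing is read from the number of such genes. The difference between the conditions was not tested. Serpinb5 had a mean log2 ratio of 1.64 in TGFb with IL6, above 0 on 4 of 4 arrays, and of -0.14 in IL2 alone, below 0 on 3 of 3, where its signal was below background. Serpinb1a had a ratio of 1.49 in TGFb with IL6, 0.39 in TGFb and 1.31 in IL6, above 0 on all arrays of each, and of -0.15 in IL2 alone, below 0 on 3 of 3. Serpina3f had a ratio of 0.28 in TGFb with IL6, above 0 on 4 of 4 arrays, and of -0.19 in IL2 alone, below 0 on 3 of 3. At its second probe, above background in all channels, the ratios in TGFb with IL6 were -0.12, -0.04, 0.43 and 0.1, so the opposite signs of Serpina3f hold for 1 of 2 probes. The fitted ratio of Serpinb5 in IL2 alone was 0.08 without the arrays of slide A. After median centring, and against the median of all genes, the ratios in IL2 alone were 0.33 for Serpinb5, -0.04 for Serpinb1a and -0.83 for Serpina3f, so the sign of Serpinb5 turned there.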

How the results depend on the processing

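Over 27 alternatives and the authors' table small values of the 9 genes changed sign. The ratio of Serpinb6a in IL2 alone ranged between -0.66 and 0.21, and that of Serpina3g in IL6 between -0.74 and 0.6. No value past the threshold changed sign, but such values are large for their error. The genes were also chosen with these arrays in view, so nothing is read from that. All 90 values of the 9 genes moved by less than the spread between replicates with no dye term, no background subtraction or the spatial trend removed. The same held with no filter, a stricter filter or every probe. There each gene kept its probe and normalized values, so its values could hardly move and nothing is read from this. Under Agilent's processed signals 41 of 90 moved, under a background model fitted on all spots 25, under median centring 21, with slide as a block 11, without slide E 14, without slide B 4, without slide A 3, without IL2 array 1 3 and without IL6 array 3 1, and 17 of 36 differed in the authors' deposited table. For the counts of other inhibitor genes past the threshold for Treg over T-effector, against 4 in IL2 alone, 3 in TGFb, 6 in TGFb with IL6 and 4 in IL6, Agilent's signals gave 10 in IL2 alone, 11 in TGFb with IL6 and 8 in IL6. The all-spots model gave 1 in IL2 alone and 0 in TGFb, median centring 11 in IL2 alone, 1 in TGFb and 12 in IL6, removing the spatial trend 8 in IL2 alone and 5 in TGFb, and leaving out slide B 0 in TGFb. For target proteases, against 9 in IL2 alone, 3 in TGFb, 2 in TGFb with IL6 and 3 in IL6, the all-spots model gave 0 in IL2 alone, 1 in TGFb and 1 in TGFb with IL6, median centring 0 in TGFb with IL6 and 9 in IL6, and removing the spatial trend 6 in TGFb, 4 in TGFb with IL6 and 6 in IL6. No dye term, no background subtraction and the slide block each gave 1 in TGFb with IL6, leaving out slide B gave 3 in IL2 alone, 0 in TGFb with IL6 and 1 in IL6, leaving out slide E gave 7 in IL6, and leaving out slide A, added after seeing the data, gave 9 in TGFb and 8 in TGFb with IL6. In T-effector cells, TGFb against IL2 alone had 7 inhibitors past the threshold, but 11 with Agilent's signals, 4 with the all-spots model, 11 with the slide block and 4 without slide E. TGFb with IL6 against TGFb had 5, but 3 with the all-spots model and 3 without slide B, and IL6 against IL2 alone had 2, but 1 with no dye term, no background subtraction, no spatial trend, the slide block or no slide B, and 0 with the all-spots model, no slide E or no slide A. Fewer arrays enter where a slide is left out, and for the other settings the cause was not tested. Each Treg over T-effector count given here moved in the same direction as the all-gene count. The protease count in IL2 alone without slide A, given further above, did not: it fell, while the all-gene count rose from 2186 to 2518. Agilent's signals gave 5367 of all genes in IL2 alone, in place of 2186, and 3605 in TGFb with IL6, in place of 1162. No slide A gave 2771 there and 2277 in TGFb, in place of 1185. In T-effector cells, IL6 against IL2 alone went the other way for no background subtraction, no spatial trend, the slide block and no slide A. Nothing is read from these counts.

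Leaving out 1 array at a time gave 2 to 6 other inhibitors in IL2 alone, 0 to 4 in TGFb, 4 to 8 in TGFb with IL6 and 4 to 6 in IL6 for Treg over T-effector, and 2 to 11, 1 to 4, 0 to 4 and 0 to 5 target proteases in the same order. The lowest counts came without IL2 array 1 (2 inhibitors and 2 proteases in IL2 alone), TGFb array 3 (0 and 1 in TGFb), TGFb with IL6 array 1 (0 proteases) and IL6 array 3 (0 proteases). The all-gene counts of these conditions were lower in these fits as well. In Treg cells the range was 8 to 10 for TGFb against IL2 alone, 5 to 8 for TGFb with IL6 against TGFb and 2 to 4 for IL6 against IL2 alone. In T-effector cells it was 2 to 8, the lowest without TGFb array 1, 4 to 5, and 0 to 2, the lowest without IL2 array 1. With the replicate block for the pairs of arrays, 7 inhibitors passed for TGFb with IL6 against TGFb in Treg cells and 5 in T-effector cells. For TGFb against IL2 alone in T-effector cells 6 passed. With this block 54 of 54 values of the 9 genes moved by less than the spread between replicates. Every condition holds arrays 1 to 3, so the block changes errors and could hardly move these values. Signals near background limit the low genes: Serpinb5 and the weaker stefins have only bounds where their group is below it.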
